A study of Mus musculus with 4 samples.

Results

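The regulators of G protein signalling (RGS) are a family of proteins named after a shared domain. The transcripts of 9 of them were followed in macrophages sorted from mouse liver tumours: Rgs1, Rgs2, Rgs3, Rgs10, Rgs12, Rgs14, Rgs16, Rgs18 and Rgs19. They were taken by gene symbol, and all 9 were found among the 24784 genes of the deposited table. The family was chosen by the RPKM values of Rgs16, which had one of the lowest fold changes in OXCT1mKO samples. The difference between the groups is therefore described for the 9 genes and not tested.

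The study holds 4 libraries of polyadenylated RNA, 2 from OXCT1mKO mice and 2 from control mice. Both groups were male, aged 6 to 8 weeks, and both carried Hepa 1-6 cells, a mouse hepatoma line, given by the route that the labels write as i.pv. The OXCT1mKO label names Oxct1, whose product lets mitochondria use ketone bodies as fuel. The sources used here give neither the allele, nor the promoter behind the deletion, nor the strain, nor do they say whether each library came from a separate animal. Values are RPKM, reads scaled to the length of the gene model and to the size of the library, so levels can be set side by side between genes.

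G protein-coupled receptors turn on heterotrimeric G proteins by loading GTP onto the alpha subunit. RGS proteins speed up the hydrolysis of that GTP through their RGS domain, which shortens the signal. In leukocytes they are best known for limiting the response to chemokines, whose receptors act through Gi. The R4 subfamily (here Rgs1, Rgs2, Rgs3, Rgs16 and Rgs18) is made mostly of small proteins, the R12 subfamily holds Rgs10, Rgs12 and Rgs14, and Rgs19 belongs to the RZ subfamily.

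Of the 9 genes, 4 lie on chromosome 1 of build GRCm38, the assembly also called mm10. Rgs2 (143999338 to 144004161), Rgs1 (144242296 to 144249242) and Rgs18 (144752683 to 144775435) sit on the minus strand in one stretch, together with Rgs13 and Rgs21. Rgs16 (153740349 to 153745468, plus strand) lies 40.0 kb from Rgs8. The other members are on chromosomes 4 (Rgs3), 7 (Rgs10), 5 (Rgs12), 13 (Rgs14) and 2 (Rgs19). The last part of Rgs16 overlaps the antisense gene Gm28513, and no strand setting is given for the counting, so reads of the pair cannot be told apart.

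The RefSeq table of promoters, build GRCm38.p6, held 6 of the 9 members, and 3 of those had a single listed start: Rgs16, Rgs2 and Rgs10. The 250 bases before that start are shown for these 3, because they are the member with the largest difference between the groups, a member with similar levels and a member with higher levels in OXCT1mKO. Capitals mark matches, on either strand, to the CCAAT box (CCAAT) and the GC box (GGGCGG).
Rgs16: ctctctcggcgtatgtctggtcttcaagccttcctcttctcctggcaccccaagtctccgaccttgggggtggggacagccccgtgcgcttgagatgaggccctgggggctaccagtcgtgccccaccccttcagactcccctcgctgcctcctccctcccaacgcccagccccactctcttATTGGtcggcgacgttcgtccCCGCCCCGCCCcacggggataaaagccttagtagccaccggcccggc
Rgs2: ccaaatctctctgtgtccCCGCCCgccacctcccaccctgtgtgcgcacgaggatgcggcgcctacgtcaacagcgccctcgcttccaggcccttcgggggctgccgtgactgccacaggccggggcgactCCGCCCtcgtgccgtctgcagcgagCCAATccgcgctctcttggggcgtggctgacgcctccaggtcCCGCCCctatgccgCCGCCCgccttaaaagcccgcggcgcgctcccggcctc
Rgs10: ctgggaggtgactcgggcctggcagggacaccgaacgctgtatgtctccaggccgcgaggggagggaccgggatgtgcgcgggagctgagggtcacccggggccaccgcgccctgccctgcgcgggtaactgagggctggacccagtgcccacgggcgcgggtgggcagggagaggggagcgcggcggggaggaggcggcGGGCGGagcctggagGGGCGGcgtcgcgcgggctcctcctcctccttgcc
These windows are chr1:153740103-153740352 on the plus strand for Rgs16, chr1:144004150-144004399 on the minus strand for Rgs2 and chr7:128418173-128418422 on the minus strand for Rgs10. GENCODE M21 places Rgs10 at 128373621 to 128418758, so its window lies inside that gene model and the annotations differ on its start. Rgs16 had 1 CCAAT match and 2 GC box matches that share a base, Rgs2 had 1 and 4, and Rgs10 had 2 GC box matches and no CCAAT. Of all 32851 windows of this length in the table, 33.8% held a CCAAT match and 32.7% a GC box match. The letters of the TATA box (TATAAA), the AP-1 site (TGACTCA), the cAMP response element (TGACGTCA), the E-box (CACGTG) and the PU.1 site (GAGGAAGT) were searched too and were not in these 3 windows. They were found in 12.4%, 4.46%, 1.55%, 6.02% and 2.44% of all windows, in that order. The windows were rich in G and C, at 66.4% for Rgs16, 72.4% for Rgs2 and 76.4% for Rgs10, against a median of 52.4% over all windows.

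The libraries were of similar depth. RPKM values of low genes with a single annotated transcript, multiplied by length, fell on steps, and these steps put the reads behind the scaling at about 20200000 to 22900000 per library. Oxct1 itself was 14.7 and 15.4 RPKM in OXCT1mKO, against 19.3 and 20.3 RPKM in control. Its log2 fold change was -0.37 ± 0.09 (SE, limma adjusted p 0.0346), a call that ended without the filter on low genes (0.0504), with the sums set equal (0.0627) and without control 2 (0.0559), OXCT1mKO 1 (0.225) or OXCT1mKO 2 (0.162). The table has no values by exon, so the loss of one cannot be seen. Leaving out an OXCT1mKO library ended nearly every call: 1 gene of 12523 passed without OXCT1mKO 1 and 10 without OXCT1mKO 2. Among all pathway and marker genes listed, only Lyz2 and 3 Kupffer cell markers passed in either of these fits. The 7 macrophage markers other than Lyz2, Csf1r and Adgre1 among them, summed to 558 and 593 RPKM in OXCT1mKO and to 267 and 258 RPKM in control. Lyz2, a lysozyme of myeloid cells, fell to 8.76 and 6.52 RPKM in OXCT1mKO, against 688 and 744 RPKM in control (-6.39 ± 0.15, limma adjusted p 0.00252). The control libraries also differed from each other: erythroid markers summed to 330 and 309 RPKM in OXCT1mKO, 24380 RPKM in control 1 and 846 RPKM in control 2, and neutrophil markers to 595.5 and 413 RPKM in OXCT1mKO, 173 RPKM in control 1 and 1346 RPKM in control 2. The log2 fold changes of the members without each control are therefore given below. Markers of T cells, endothelium and hepatocytes were present in all 4 libraries, so the sorted samples also held RNA of other cells. In bulk RNA, fewer cells of a type and less RNA per cell cannot be told apart.

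The family spanned a wide range of levels, and Rgs1 made up most of it. Rgs1, which in B and T cells damps migration toward chemokines, supplied 61.7% and 64.0% of the summed RPKM of the 9 members in the OXCT1mKO libraries and 64.7% and 59.5% in the control libraries. It exceeded 98.2% or more of the genes detected in each library. By mean level in OXCT1mKO, Rgs1 (216 RPKM) was followed by Rgs2 (47.9), Rgs10 (40.4), Rgs3 (11.9), Rgs19 (11.5), Rgs16 (6.13), Rgs14 (5.49), Rgs12 (2.59) and Rgs18 (1.69). The libraries of Rgs3 and Rgs19 overlapped, as did those of Rgs16 and Rgs14, so the order within these pairs is not set. In control the order was Rgs1 (221.5 RPKM), Rgs2 (52.8), Rgs16 (28.7), Rgs10 (24.96), Rgs3 (8.81), Rgs19 (8.44), Rgs14 (5.12), Rgs12 (2.50) and Rgs18 (0.389), with overlap within the pairs Rgs16 and Rgs10, and Rgs3 and Rgs19. Rgs16 was thus the sixth by mean level in OXCT1mKO and the third in control.

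**Figure D1:**
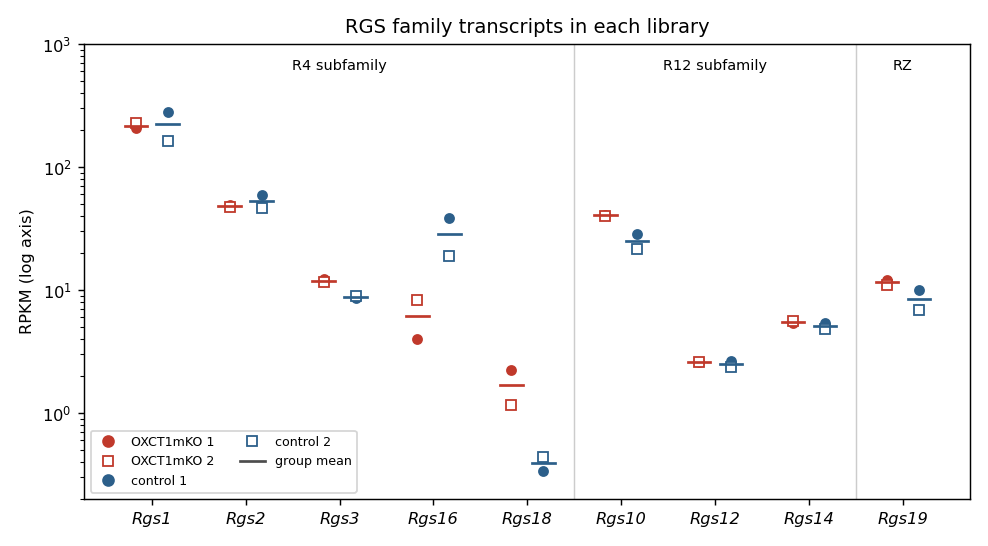
RPKM (log axis) of the 9 RGS genes in the OXCT1mKO libraries (red, left of each pair) and the control libraries (blue, right); filled circles are replicate 1, open squares replicate 2 and bars the group mean. Rgs16 sits at 4.00 and 8.26 RPKM in OXCT1mKO and at 38.4 and 19.0 RPKM in control, while Rgs2, Rgs12 and Rgs14 lie at nearly the same level in both groups.

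Rgs16 acts on Gi and Gq alpha subunits and is induced in activated T cells. It was 4.00 and 8.26 RPKM in the OXCT1mKO libraries, against 38.4 and 19.0 RPKM in the control libraries. Both OXCT1mKO values lay below both control values, although the libraries of each group differed by 2.07-fold in OXCT1mKO and 2.02-fold in control. At the estimated depth and the annotated length of its single transcript, these levels stand for about 203 and 391 reads in OXCT1mKO and 1993 and 1017 reads in control. The mean was 6.13 ± 3.02 RPKM in OXCT1mKO and 28.7 ± 13.7 RPKM in control (SD, n = 2 each), a ratio of 0.214. The log2 fold change, OXCT1mKO minus control on the log2(RPKM + 1) scale, was -2.05 ± 0.43 (SE), and ranged from -2.53 without control 2 to -1.56 without control 1. Counted from the lowest fold change, Rgs16 was at place 16 of the 12523 genes tested, and this is what led to the choice of the family.

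Rgs1 was 206 and 226 RPKM in OXCT1mKO, against 280.5 and 163 RPKM in control, so the OXCT1mKO values lay between those of the controls. Its log2 fold change of 0.01 ± 0.27 became 0.41 without control 1 and -0.38 without control 2. The sign for Rgs1 was therefore set by which control library was used, and it also turned to -0.05 without OXCT1mKO 2 and with medians set equal.

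Rgs2, which acts mainly on Gq and is known for its part in the control of blood pressure, was 48.7 and 47.2 RPKM in OXCT1mKO and 59.0 and 46.7 RPKM in control. The groups overlapped, and the log2 fold change was -0.13 ± 0.13, with 0.04 without control 1 and -0.29 without control 2. Rgs3, a regulator of Gi and Gq with long and short forms, was 12.2 and 11.6 RPKM in OXCT1mKO and 8.66 and 8.96 RPKM in control. Its groups lay apart with little spread inside each, and the log2 fold change was 0.39 ± 0.09, with 0.37 without control 1 and 0.42 without control 2. The table has 1 value for Rgs3, whose 17 annotated transcripts cannot be separated.

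Rgs18, which is found mostly in blood cells and is abundant in platelets, was the lowest member. It was 2.22 and 1.16 RPKM in OXCT1mKO and 0.336 and 0.441 RPKM in control, about 98 and 48 reads in OXCT1mKO and about 15 and 20 in control. Rgs18 had the highest ratio of means among the members, 4.35, and a log2 fold change of 0.93 ± 0.23, which was 1.82 with a pseudocount of 0.1. It was 0.87 without control 1 and 0.98 without control 2, and 0.64 without OXCT1mKO 1. Its mean over the 4 libraries, 1.04 RPKM, passed the minimum of 1 RPKM only through its higher level in OXCT1mKO. Of 13 platelet and megakaryocyte markers, Gp9, Gp1ba, Gp1bb, Gp5, Gp6, Treml1 and Tubb1 were under 1 RPKM in every library. The list summed to 72.2 and 68.4 RPKM in OXCT1mKO and 66.7 and 60.5 RPKM in control. Clec1b made up most of the OXCT1mKO sums, with 47.6 and 39.7 RPKM, against 22.8 and 21.2 RPKM in control. Pf4 was 17.3 and 21.7 RPKM in OXCT1mKO and 38.7 and 32.5 RPKM in control. The similar sums thus join a rise and a fall, and the part of platelets in the Rgs18 values was not tested. Of the 4 platelet markers tested, Pf4 fell (-0.84 ± 0.15, limma adjusted p 0.0201) and Clec1b, which Kupffer cells also express, rose (0.95 ± 0.12, 0.0128).

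In the R12 subfamily, Rgs10 had the largest log2 fold change. Rgs10, a short Gi regulator known for restraining inflammatory activation of microglia, was 40.6 and 40.1 RPKM in OXCT1mKO and 28.4 and 21.5 RPKM in control. Both OXCT1mKO values were above both control values, with a ratio of means of 1.62 and a log2 fold change of 0.69 ± 0.15, with 0.88 without control 1 and 0.49 without control 2. Rgs12 and Rgs14, scaffolds that carry Ras-binding and GoLoco regions beside the RGS domain, differed little. Rgs12 was 2.58 and 2.60 RPKM in OXCT1mKO and 2.65 and 2.36 RPKM in control. The groups overlapped, and the log2 fold change was 0.04 ± 0.12, with 0.10 without control 1, but -0.02 without control 2 and -0.03 with medians set equal. Rgs14 was 5.42 and 5.56 RPKM in OXCT1mKO and 5.41 and 4.83 RPKM in control, and its log2 fold change was 0.09 ± 0.11, with 0.16 without control 1 and 0.02 without control 2. The lower OXCT1mKO value of Rgs14 was above the higher control value only in the third decimal (5.418 and 5.414 RPKM).

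Rgs19, a Gi regulator of the RZ subfamily also called GAIP, was 12.1 and 10.97 RPKM in OXCT1mKO and 9.99 and 6.89 RPKM in control. The groups did not overlap, and the log2 fold change was 0.43 ± 0.18, with 0.66 without control 1 and 0.19 without control 2.

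**Figure D2:**
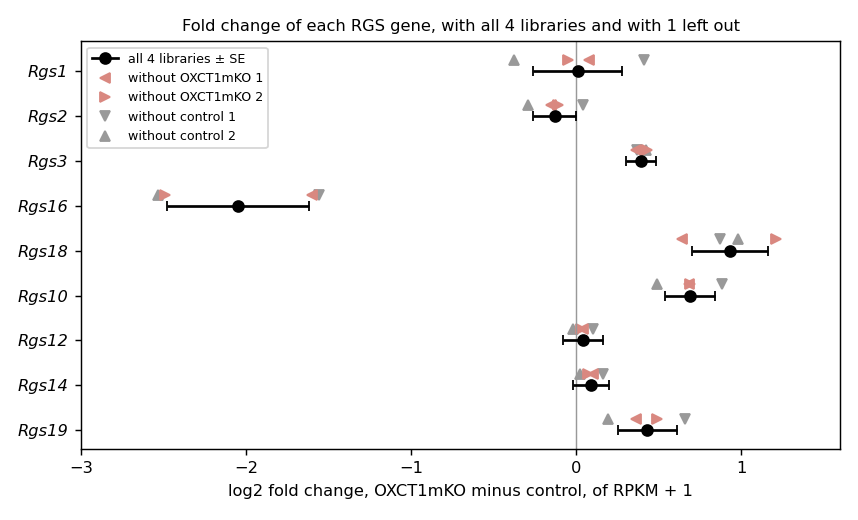
Log2 fold change (OXCT1mKO minus control, log2 of RPKM + 1) of each RGS gene; black points with bars are all 4 libraries ± SE, and triangles are the fits with 1 library left out. Rgs16 lies at -2.05 and between -2.53 and -1.56 with a library left out, while Rgs1 moves between -0.38 and 0.41.

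Across the family, the OXCT1mKO libraries lay above both controls for 5 of the 9 members (Rgs3, Rgs10, Rgs14, Rgs18 and Rgs19) and below both for 1 (Rgs16). Among all 12523 genes tested, 37.6% lay apart upward and 37% downward, 74.7% in either direction. The median log2 fold change was 0.09 over the members and 0.00 over all genes tested. Since the contrast chose the family, nothing is read from these counts. The summed level of the 9 members was 333 and 354 RPKM in OXCT1mKO, between the 433 and 273 RPKM of the controls. Rgs16 made up 1.20% and 2.34% of that sum in OXCT1mKO and 8.86% and 6.96% in control.

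The table also held 12 RGS genes outside the set, and none reached the mean of 1 RPKM needed for a test. Rgs7 and Rgs21 were listed at 0 in all 4 libraries. Rgs5, known from pericytes, had the highest mean of them over the 4 libraries, with 1.27 and 0.519 RPKM in OXCT1mKO and 1.18 and 0.778 RPKM in control. Rgs11 was 0.570 and 0.706 RPKM in OXCT1mKO and 0.887 and 0.788 RPKM in control, above Rgs5 in OXCT1mKO 2 and control 2, and Rgs9 was 0.156 and 0.455 RPKM in OXCT1mKO and 0.0634 and 0.124 RPKM in control. Rgs8 and Rgs13, the neighbours of Rgs16 and Rgs1 within the family, stayed at or below 0.177 RPKM and 0.0584 RPKM in every library.

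Npl, the nearest tested gene before Rgs16 on chromosome 1, was 16.6 and 14.2 RPKM in OXCT1mKO and 12.1 and 17.3 RPKM in control (0.08 ± 0.19, limma adjusted p 0.765). Of the 14 nearest tested neighbours of all members, 2 fell by limma and 0 rose, with 32.8% of all tested genes past the threshold, 16.4% upward and 16.4% downward. At an unadjusted limma p under 0.05 there were 7 neighbours in either direction, beside 6000 of the 12523 genes tested. The genes that fell were Uchl5 (-0.65 ± 0.11, limma adjusted p 0.0193), a proteasome-associated deubiquitinase 191.9 kb from Rgs2, and Pole3 (-0.48 ± 0.11, 0.0312), a DNA polymerase epsilon subunit 34.8 kb from Rgs3. Besides the fits without an OXCT1mKO library, the Pole3 call was lost without control 1 (0.0697), without the filter on low genes (0.057) and with the sums set equal (0.056).

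Over the 4 libraries, the genes whose centred log2(RPKM + 1) values lay nearest to those of Rgs16 were Ifng, Gzmk and Lat, at Euclidean distances of 0.218, 0.242 and 0.430. Ifng, which encodes interferon gamma, was 2.79 and 5.13 RPKM in OXCT1mKO and 26.2 and 11.3 RPKM in control. Gzmk, a granzyme of cytotoxic lymphocytes, was 0.959 and 2.45 RPKM in OXCT1mKO and 11.5 and 5.72 RPKM in control. Lat, the adaptor that links the T cell receptor to its downstream signals, was 5.80 and 9.17 RPKM in OXCT1mKO and 34.2 and 21.6 RPKM in control. All 3 shared with Rgs16 the order of the libraries, with control 1 highest and OXCT1mKO 1 lowest. Since they were picked for closeness to these same values, the shared order is no separate result.

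Markers of T cells moved with Rgs16. The 16 listed T cell markers summed to 70.02 and 125 RPKM in OXCT1mKO and 310.3 and 203 RPKM in control, and none was at 0 in all libraries. Of the 15 tested, 6 fell and 0 rose by limma (Cd3d, Cd3g, Cd8b1, Lat, Thy1 and Bcl11b), with a median log2 fold change of -1.17. Of all genes tested, 16.4% fell. Bcl11b, with a mean of 0.526 RPKM in OXCT1mKO and 1.51 RPKM in control, passed the minimum of 1 RPKM only through control. The count of 6 was 2 without control 1, 8 without control 2 and 1 without the filter on low genes. Cd3g was 9.26 and 14.9 RPKM in OXCT1mKO and 50.9 and 27.4 RPKM in control (-1.59 ± 0.35, limma adjusted p 0.0311, but 0.059 without control 1 and 0.0761 without the filter). Relative to the T cell sum, Rgs16 was 5.71% and 6.62% in OXCT1mKO and 12.4% and 9.37% in control, a ratio of means of 0.567. The T cell sum itself had a ratio of 0.379 and Rgs16 one of 0.214. Relative to the summed markers of activated T cells, Rgs16 was 6.07% and 7.10% in OXCT1mKO and 23.4% and 21.2% in control. Relative to the natural killer cell sum, it was 7.32% and 8.90% in OXCT1mKO and 20.9% and 17.4% in control. Relative to the macrophage sum, Lyz2 included, Rgs16 was 0.705% and 1.38% in OXCT1mKO and 4.02% and 1.90% in control. Lyz2 made up most of that sum in control, 688 of 955 RPKM and 744 of 1001 RPKM, but little of it in OXCT1mKO. Without Lyz2 the sum was 558 and 593 RPKM in OXCT1mKO and 267 and 258 RPKM in control. Relative to the platelet and megakaryocyte sum, it was 5.54% and 12.1% in OXCT1mKO and 57.5% and 31.4% in control. Rgs16 was thus lower in both OXCT1mKO libraries than in both controls against each of these sums, of lymphocytes or not. Since Rgs16 was chosen for its low fold change, these ratios are no test. They were chosen after the values were seen, and the part of lymphocyte content in the Rgs16 values was not tested.

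Markers of other cells were lower in the same libraries as Rgs16. All 9 tested markers of exocrine pancreas fell by limma, with a median log2 fold change of -2.01 and sums of 6.34 and 4.32 RPKM in OXCT1mKO and 61.6 and 42.8 RPKM in control. Of all genes tested, 16.4% fell. All of these markers but Cela1 had a mean under 1 RPKM in OXCT1mKO. They passed the minimum of 1 RPKM only through control, so a rise could hardly be called for them and nothing is read from the count. Of 5 tested hepatoma markers 3 fell, among them Afp, the fetal liver protein alpha-fetoprotein (-1.80 ± 0.21, limma adjusted p 0.0127). The part of these cells in the Rgs16 values was not tested.

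Other lymphocyte lists were less uniform than the T cell list. Their counts stand beside 16.4% of all genes tested upward and 16.4% downward. The 12 markers of activated T cells summed to 65.9 and 116 RPKM in OXCT1mKO and 164 and 89.9 RPKM in control, so the groups overlapped. Of the 11 tested, only Havcr2 passed with all 4 libraries, upward (1.52 ± 0.12, limma adjusted p 0.0127), a gene that myeloid cells also express, while 4 others passed downward without control 2. Ctla4 was 10.3 and 18.2 RPKM in OXCT1mKO and 43.7 and 22.4 RPKM in control (-1.13 ± 0.39, limma adjusted p 0.0837). The 9 natural killer cell markers summed to 54.6 and 92.9 RPKM in OXCT1mKO and 184 and 109.6 RPKM in control, with Eomes and Gzma lower and Ncr1 and Klrk1 higher by limma. Without control 1 these counts were 1 higher and 1 lower, and without the filter 2 higher and 0 lower. B cell markers summed to 84.8 and 103 RPKM in OXCT1mKO, 26.3 RPKM in control 1 and 173 RPKM in control 2, and 0 of the 9 passed limma with all 4 libraries, but 5 were lower without control 1 and 8 higher without control 2. The part of these cells in the values of Rgs16 and Rgs1 was not tested.

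**Figure D3:**
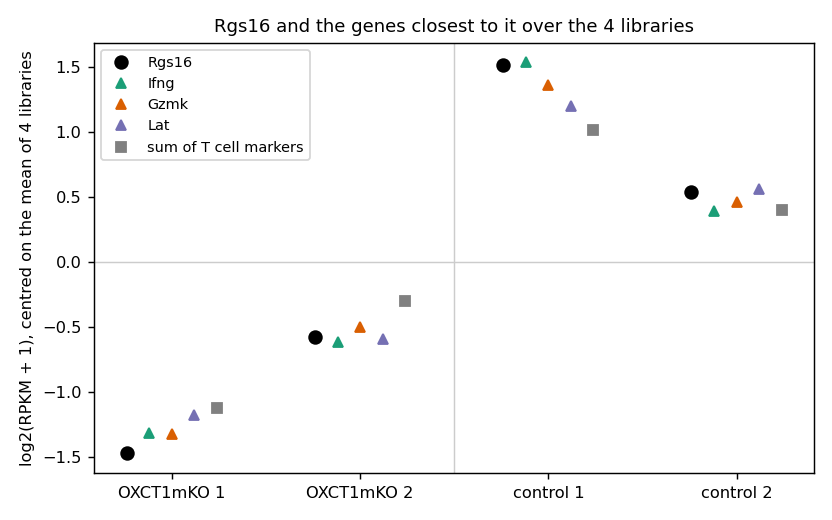
Log2(RPKM + 1), centred on the mean of the 4 libraries, of Rgs16 (black), its 3 nearest genes Ifng, Gzmk and Lat (triangles) and the sum of 16 T cell markers (grey squares) in the OXCT1mKO and control libraries. All lie above 0 in both controls and below 0 in both OXCT1mKO libraries, and Rgs16 spans more than the T cell sum. The 3 genes were picked for closeness to Rgs16 over these same values.

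The other members had nearest genes of other kinds. For Rgs10 they were Ehbp1l1, Celf2 and Ms4a6b, at distances of 0.0107, 0.0108 and 0.0337. Ms4a6b, a membrane protein of leukocytes, was 21.8 and 21.3 RPKM in OXCT1mKO and 14.98 and 10.9 RPKM in control. For Rgs18 they were Fxyd6, Mlf1 and Gapt, for Rgs1 Lgals7, Tox2 and Cd72, and for Rgs19 Yod1, Apbb3 and Col1a2. Cd72, a coreceptor of B cells, was 21.97 and 25.3 RPKM in OXCT1mKO and 32.7 and 16.9 RPKM in control. Rgs3 was nearest to Ttll5, Kank3 and Sumf1, and the flat profiles of Rgs2, Rgs12 and Rgs14 to B3gntl1, Snrnp35 and Max, to Ankrd49, Fam210a and Zfp869, and to Arpc5, Chfr and Usp4. With 4 libraries, such distances describe the profiles only.

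The rest of the G protein cycle was taken from 10 lists of receptors, subunits, kinases, effectors and related domains. Their 136 genes included 90 with enough signal to test, of which 29 rose and 2 fell by limma. The share past the threshold, 34.4%, was near the 32.8% of all genes tested, but its direction was not even, while of all genes 16.4% rose and 16.4% fell. The median log2 fold change of the 90 genes was 0.43, against 0.00 over all genes. Without OXCT1mKO 1 or without OXCT1mKO 2 limma called 0 of the 90, where 32 and 34 had an unadjusted p under 0.05, and it called 1 and 10 of all genes. Without the filter on low genes 17 rose and 1 fell, and without control 2 the counts were 43 and 3. With RPKM sums set equal after leaving out globin genes, 39 list genes rose and 2 fell, while over all genes 2718 rose and 1479 fell, in place of 2058 and 2052.

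Receptors that signal through Gi, on which most RGS proteins act, held the highest fold changes. Of 26 tested receptors 10 rose and 0 fell, with a median log2 fold change of 0.91, beside 16.4% of all genes tested upward and 16.4% downward. With a minimum mean of 5 RPKM, 5 rose. The absence of falls rested on having both controls, because some receptors lay between them. Hcar2 was 25.7 and 28.2 RPKM in OXCT1mKO, 12.2 RPKM in control 1 and 57.7 RPKM in control 2. S1pr1 was 23.1 and 20.7 RPKM in OXCT1mKO, 15.3 RPKM in control 1 and 30.6 RPKM in control 2. Ccr2, the receptor that draws inflammatory monocytes, was 33.4 and 27.7 RPKM in OXCT1mKO and 6.52 and 4.86 RPKM in control (2.24 ± 0.17, limma adjusted p 0.0127). Cxcr4, the receptor for Cxcl12, was 81.4 and 71.4 RPKM in OXCT1mKO and 22.8 and 32.1 RPKM in control (1.46 ± 0.18, limma adjusted p 0.0128). Xcr1 of type 1 dendritic cells (1.64 ± 0.15) and P2ry14, a receptor for UDP-glucose (1.08 ± 0.15), rose as well. Xcr1 was 2.82 and 3.23 RPKM in OXCT1mKO and 0.362 and 0.215 RPKM in control. It passed the minimum of 1 RPKM only through OXCT1mKO, as did P2ry13, also among the 10. Cxcr3 and Cxcr6, chemokine receptors of T cells, did not pass, with log2 fold changes of -0.22 ± 0.22 and -0.52 ± 0.34 (limma adjusted p 0.47 and 0.276), and were chosen after their values were seen. Of 8 Gq-coupled receptors 3 rose, Ptafr for platelet-activating factor (1.77 ± 0.30), P2ry1 for ADP (0.96 ± 0.20) and Cysltr1 for leukotrienes (0.78 ± 0.15). Without control 1 or without control 2 the count of Gq-coupled receptors was 5. The P2ry1 call ended without control 2 (0.0613) and without the filter (0.0682), and that of Cysltr1 without the filter (0.0501). P2ry6 was 9.28 and 9.03 RPKM in OXCT1mKO and 6.15 and 3.51 RPKM in control, and did not pass at a limma adjusted p of 0.0501. Of 5 Gs-coupled receptors, the proton sensor Gpr65 (1.29 ± 0.20) and the adenosine receptor Adora2b (0.91 ± 0.20) rose. The Adora2b call ended without control 1 (0.0738) and without the filter (0.069), and without control 1 a single Gs-coupled receptor passed.

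Macrophage, monocyte, dendritic cell and endothelial markers rose in the same libraries. Of all genes tested, 16.4% rose by limma. Of 7 monocyte markers 6 rose, with sums of 425 and 336 RPKM in OXCT1mKO and 136 and 157 RPKM in control. Of 7 conventional dendritic cell markers 6 rose, with sums of 65.2 and 72.7 RPKM in OXCT1mKO and 23.8 and 20.1 RPKM in control. Of 7 Kupffer cell markers 6 rose, with sums of 382.5 and 229 RPKM in OXCT1mKO and 31.6 and 28.5 RPKM in control. Of 8 macrophage markers 5 rose and Lyz2 fell, and without the filter 2 rose. Of 9 endothelial markers 7 rose, with a median log2 fold change of 0.77 and sums of 1569 and 1407 RPKM in OXCT1mKO and 855 and 993 RPKM in control. Ccr2 is in the monocyte list and Xcr1 in the dendritic cell list. Xcr1 and Flt3 of the dendritic cell list and Cd163 of the Kupffer cell list had control means under 1 RPKM. These genes passed the minimum of 1 RPKM only through OXCT1mKO. The part of these cells in the receptor values and in those of Rgs3, Rgs10, Rgs18 and Rgs19 was not tested.

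Among the substrates of RGS proteins, Gnai2, the main Gi alpha subunit of leukocytes, was 237 and 236 RPKM in OXCT1mKO and 174 and 187 RPKM in control (0.39 ± 0.09, limma adjusted p 0.0367). That call was lost without the filter on low genes (0.0655), without control 1 (0.0599) and with medians set equal (0.0526). Gna13 (0.72 ± 0.10, limma adjusted p 0.0142) and Gna12 (0.50 ± 0.09, 0.0212), alpha subunits of the G12 class, rose too, and Gnaq did not pass (0.36 ± 0.13, 0.0818). This made 3 of 9 alpha subunits, near the 32.8% of all genes tested that passed in either direction, with 16.4% upward. Of 11 beta and gamma subunits only Gngt2 passed, upward (0.64 ± 0.12, limma adjusted p 0.0208). Gnb5, the partner of the R7 subfamily of RGS proteins, was 2.77 and 3.55 RPKM in OXCT1mKO and 4.09 and 4.18 RPKM in control (-0.31 ± 0.14, limma adjusted p 0.139).

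Receptor kinases and arrestins, the other brake on receptors, included Grk3 and Arrb1 as the genes that rose among 6. This count and that of the effectors stand beside 32.8% of all genes tested in either direction and 16.4% upward. Grk3 was 12.3 and 9.64 RPKM in OXCT1mKO and 2.72 and 1.59 RPKM in control (1.94 ± 0.22, limma adjusted p 0.0127). Arrb1, which encodes an arrestin, was 19.9 and 19.6 RPKM in OXCT1mKO and 12.2 and 12.4 RPKM in control (0.64 ± 0.08, limma adjusted p 0.013). Among 9 effectors, Adcy7 (1.02 ± 0.24) and Adcy4 (0.64 ± 0.17), adenylyl cyclases, and Plcb2 (1.02 ± 0.19) and Plcb4 (0.88 ± 0.17), phospholipases activated by Gq, rose, with limma adjusted p between 0.0207 and 0.0469. Without the filter on low genes 0 of the 9 effectors passed, with adjusted p of 0.0971 for Adcy4, 0.0803 for Adcy7, 0.0553 for Plcb2 and 0.0601 for Plcb4. The Adcy4 call also ended without control 1 (0.12) and without the variance trend (0.0545).

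Of 9 other proteins with an RGS or RGS-like domain, 3 rose and 1 fell, beside 32.8% of all genes tested in either direction. Snx13 (0.75 ± 0.10, limma adjusted p 0.0129), a sorting nexin, Arhgef12 (0.70 ± 0.11, 0.0154), an exchange factor driven by the G12 class, and Akap10 (0.51 ± 0.10, 0.0227), an anchor of protein kinase A, rose, though Akap10 did not pass without the filter (0.0517). Axin2, a scaffold and target gene of Wnt signalling, fell to 10.4 and 13.3 RPKM in OXCT1mKO, against 21.5 and 22.2 RPKM in control (-0.84 ± 0.13, limma adjusted p 0.0162). Of 7 other modulators, Ccdc88a (0.99 ± 0.12, limma adjusted p 0.0127), a non-receptor activator of Gi, rose and Gpsm2 (-0.50 ± 0.11, 0.0319), a GoLoco protein that orients the mitotic spindle, fell. The Gpsm2 call ended without the filter (0.0754) and without control 1 (0.0683).

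**Figure D4:**
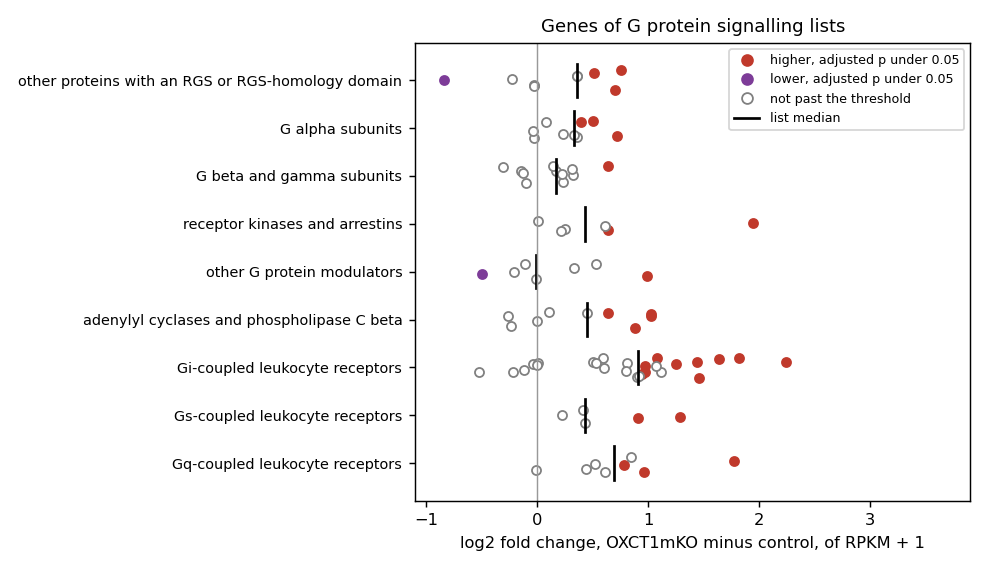
Log2 fold change (OXCT1mKO minus control, log2 of RPKM + 1) of the 90 tested genes of the G protein signalling lists; red points passed the limma threshold upward, purple points downward, open points did not pass, and black lines mark list medians. The Gi-coupled receptors have the highest median, 0.91, and the other modulators a median of -0.01.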

How the data were processed

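The authors deposited RPKM values in a single table with genes in rows and samples in columns. The tools named are STAR 2.10 and R 4.0.5, and the build mm10, per the submitters' processing notes. The counter, strand setting, annotation and gene lengths were not given in the sources used here. Columns were matched to samples by title, and 0 columns were left unused. After adding a pseudocount of 1 and taking log2, the 12523 genes averaging at least 1 RPKM were fitted with limma 3.58.1 (R 4.3.3, variance trend, two-sided, Benjamini-Hochberg over all genes tested, threshold 0.05). This scale understates the change of low genes. An exact permutation test of 2 against 2 cannot go below a p of 0.333. The labels do not say that libraries came from separate animals, so a p-value reflects the scatter of these libraries alone, which may be technical.

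The members, lists and tests were chosen with earlier results of these data known. Named genes were the members, other RGS genes, up to 4 genes with the smallest p in each list, the nearest tested gene on each side of each member, the 3 nearest profiles, Oxct1, and leading markers of the lists described. Some items are not reported here. A marker list not described in the report stands only in the tables. Positions came from GENCODE M21. Depth was estimated from 331 to 473 low genes per library, 41.7% to 43.8% of whose values lay within 0.05 of a whole read, where an even spread gives 10%; read numbers are thus approximate. The fit was checked on simulated data. Alternatives were another pseudocount, 2 other filters, each library left out, a replicate block, no variance trend and 2 scalings.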

Additional observations from a re-analysis of the deposited data

How the results depend on the processing

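Over the 11 alternatives, Rgs3, Rgs10, Rgs14, Rgs16, Rgs18 and Rgs19 kept the sign of their log2 fold change wherever they could be fitted. Most of this was fixed in advance. Their groups do not overlap, so neither leaving out a library nor another pseudocount can turn the sign. The filters, the block and the variance trend leave the fold change as it is, so only the 2 scalings could have turned it. Rgs12 and Rgs18 fell under the minimum mean of 5 RPKM. Rgs1, Rgs2 and Rgs12 changed sign when a library was left out. Leaving out 1 library moved the count of genes past the threshold from 1 to 4418 (0 to 2362 higher, 1 to 2056 lower), the list genes from 0 to 46 (0 to 43 higher, 0 to 3 lower) and the neighbours from 0 to 2. The counts of 1 and 10 genes came without OXCT1mKO 1 and OXCT1mKO 2, where 3466 and 3869 genes had an unadjusted p under 0.05, and the lone library was assumed to vary like the controls. Without the filter on low genes, 2340 genes changed, 1191 higher and 1149 lower, with 18 list genes (17 higher, 1 lower) and 1 neighbour. With a minimum mean of 5 RPKM, 1 list gene was lower. With the replicate number as a block, 3606 genes changed, 1 list gene was lower and 4 neighbours passed. Same-numbered libraries hardly deviated together (correlation 0.0545 across 12523 genes), but this value cannot tell whether they were handled as pairs. Among the calls the block ended were those of Oxct1 (0.0577), Gnai2 (0.0674), Gpsm2 (0.0572), Adcy4 (0.0601) and Gzma (0.0528). Setting RPKM sums equal without globin moved the share of higher calls to 64.8%, from 50.1%, and its median log2 fold change was 0.09. With no variance trend 3872 genes changed and with medians set equal 4369. Rgs18, at about 15 to 98 reads, is the member that depth limits most.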
